A study of Mus musculus with 2 samples.

Results

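The 10 genes described here, Per1, Per2, Per3, Cry1, Cry2, Arntl, Clock, Nr1d1, Nr1d2 and Dbp, form the core loop of the mammalian circadian clock and its best known output. They were taken by gene symbol from the 32285 genes counted in both libraries. All 10 were detected in both libraries, and their levels were read in 4 classes of neuronal nuclei that were defined by other genes.

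The clock is a feedback loop of transcription. The proteins of Arntl (also called Bmal1) and Clock bind E-box motifs together and switch on the Period (Per) and Cryptochrome (Cry) genes, whose proteins return to the nucleus and repress that pair. Nr1d1 and Nr1d2 encode the REV-ERB receptors, which repress Arntl through ROR elements, and Dbp encodes a factor that acts on D-box motifs of output genes. The suprachiasmatic nucleus, which lies next to the preoptic area (POA), is the master clock of the brain. Per1 is in addition an early response gene, since cAMP and calcium signals act on its promoter in many cell types.

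The POA is the hypothalamic region that ultrasound was aimed at in this study, and it was dissected from wild-type (WT) mice aged 6 to 9 weeks. About 1 h passed between treatment and perfusion. The US+ group received ultrasound stimulation and the US- group a sham treatment. For each group the nuclei of 4 mice were pooled, sorted on the neuronal antigen NeuN and made into 1 droplet library of unique molecular identifiers (UMIs), each of which counts an mRNA molecule once. Each library came from a single pool, so the spread between mice is unknown, no test between US+ and US- was possible, and every interval given covers counting error only. The strain is given in the methods as C57BL/6NCrl for the first characterization of the effect, and the time of day of collection was not given in the sources used here. Clock genes change with time of day, so a difference in collection time and the ultrasound cannot be told apart.

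Nuclei were kept when they held 200 to 7500 genes, at most 5% mitochondrial UMIs and at least 2000 UMIs. That left 11040 of 11725 US- barcodes with 98904011 UMIs and 9912 of 12075 US+ barcodes with 84857570 UMIs. The 2000 UMI minimum removed 623 US- nuclei and 1987 US+ nuclei. The libraries shared 29 barcodes, 19 of them among kept nuclei. Suprachiasmatic-type nuclei (at least 1 Vipr2 UMI and at least 3 of Vip plus Vipr2) numbered 20 in US- and 87 in US+. Striatal-type nuclei (at least 2 Rarb UMIs and at least 1 of Drd1 plus Drd2) numbered 2017 and 584. Other GABAergic nuclei, those that make the inhibitory transmitter GABA, numbered 5118 and 4582, and glutamatergic nuclei 858 and 1006. The rest, 3027 and 3650, stayed unclassified, apart from 3 US+ nuclei that met both of the first rules. Median depth was 8376 and 7551 UMIs per nucleus in suprachiasmatic-type nuclei, 9211 and 10524 in striatal-type, 8304 and 8041 in other GABAergic and 8338 and 8146 in glutamatergic nuclei, US- first.

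The class names were checked against markers that the rules did not use. In suprachiasmatic-type nuclei Lhx1, a developmental factor of that nucleus, stood at 52.0 (US-) and 74.4 (US+) CPM, that is, UMIs of the gene per 1000000 UMIs, against 2.49 and 4.62 CPM in other GABAergic nuclei. Six6 was at 11.6 and 13.1 CPM against 0.208 and 0.887 CPM, and Rorb at 1473 and 1247 CPM against 142.5 and 220.5 CPM. Grp and Prok2, peptide genes of the same nucleus, had 0 UMIs in the 20 US- nuclei. In US+ Grp was at 2.61 CPM and Prok2 at 19.6 CPM, close to the 22.5 CPM of Prok2 in striatal-type nuclei, so these 2 markers did not set the class apart. Striatal-type nuclei held the dopamine signalling gene Ppp1r1b at 34.2 and 22.9 CPM, against 7.35 and 2.88 CPM in other GABAergic nuclei. Some listed markers did not separate the classes. In US- the striatal marker Pde10a was at 1773 CPM in suprachiasmatic-type and 1634 CPM in striatal-type nuclei. The suprachiasmatic marker Avp was at 86.6 CPM in suprachiasmatic-type and 90.1 CPM in glutamatergic nuclei of US-. Summed glutamatergic markers were at 57.8 (US-) and 30.0 (US+) CPM in suprachiasmatic-type nuclei, and summed GABAergic markers at 259.9 and 359.0 CPM. The share of striatal-type nuclei differed between the libraries, at 18.3% of kept nuclei in US- and 5.89% in US+, and that of suprachiasmatic-type nuclei at 0.181% and 0.878%, and whether the dissections differed was not tested.

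On the GRCm38 build (GENCODE M21 annotation), the activator genes lie at chr7:113207465-113314126 on the plus strand (Arntl, ENSMUSG00000055116) and chr5:76209868-76304792 on the minus strand (Clock, ENSMUSG00000029238). Per1 (ENSMUSG00000020893) occupies chr11:69095217-69109960 on the plus strand, Per2 (ENSMUSG00000055866) chr1:91415982-91459324 on the minus strand and Per3 (ENSMUSG00000028957) chr4:151003652-151044665 on the minus strand. Cry1 (ENSMUSG00000020038) occupies chr10:85131700-85185064 and Cry2 (ENSMUSG00000068742) chr2:92403646-92434043, both on the minus strand. Nr1d1 (ENSMUSG00000020889) lies at chr11:98767932-98775333 and Nr1d2 (ENSMUSG00000021775) at chr14:18204054-18239127, both on the minus strand, and Dbp (ENSMUSG00000059824) at chr7:45705088-45710203 on the plus strand. Reads can be ambiguous at overlaps. On the same strand the whole of Per3 lies inside the annotated span of Camta1, and Clock overlaps Gm43658 by 4176 bases and Ube2n-ps1 by 459. On the opposite strand Cry2 overlaps D930015M05Rik by 23417 bases, Arntl overlaps Gm45355 by 2394, Nr1d1 overlaps Thra by 1075 and Dbp overlaps Sphk2 by 737.

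RefSeq promoter windows of GRCm38.p6, 250 bases before to 50 bases after a start site, were at hand for 9 of the 10 genes, 13 windows in all, and not for Per2. They were searched on both strands for the E-box CACGTG and its variant CACGTT, the D-box TTATGTAA (read on the other strand as TTACATAA), the ROR elements TAGGTCA and GGGTCA, the cAMP element TGACGTCA and its shorter form TGACG, which is part of the longer one. The 250 bases before the start are printed for Per1, Cry1, Per3 and Nr1d1, 5′ to 3′ in the direction of transcription, with motif matches in capitals. The Cry2 window, not printed, also has the variant, 166 bases before the start, and TGACG, 209 bases before it. The first Per1 window (chr11:69098699-69098948, plus strand) has the E-box 166 bases before the start, and TGACG. The second (chr11:69099902-69100151, plus strand) has TGACG only, the Cry1 window (chr10:85185055-85185304, minus strand) has an E-box, the variant as AACGTG on its other strand, and TGACG, the Per3 window (chr4:151044666-151044915, minus strand) has the D-box at 2 places, and the Nr1d1 window (chr11:98775378-98775627, minus strand) has the variant E-box.
Per1, first start: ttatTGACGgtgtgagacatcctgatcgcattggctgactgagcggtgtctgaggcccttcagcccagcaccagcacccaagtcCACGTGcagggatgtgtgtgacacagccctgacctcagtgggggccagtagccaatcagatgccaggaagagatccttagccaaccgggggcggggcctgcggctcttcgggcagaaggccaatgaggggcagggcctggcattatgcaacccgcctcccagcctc
Per1, second start: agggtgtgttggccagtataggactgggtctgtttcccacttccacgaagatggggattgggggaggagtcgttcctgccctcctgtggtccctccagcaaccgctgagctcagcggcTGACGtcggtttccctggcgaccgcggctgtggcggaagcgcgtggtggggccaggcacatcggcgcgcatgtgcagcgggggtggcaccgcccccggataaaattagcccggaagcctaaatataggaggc
Cry1: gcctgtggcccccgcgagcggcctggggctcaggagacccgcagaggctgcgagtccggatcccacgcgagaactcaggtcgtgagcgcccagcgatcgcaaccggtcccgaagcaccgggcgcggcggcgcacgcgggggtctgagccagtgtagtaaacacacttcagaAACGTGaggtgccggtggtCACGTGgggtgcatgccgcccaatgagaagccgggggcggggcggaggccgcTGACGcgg
Per3: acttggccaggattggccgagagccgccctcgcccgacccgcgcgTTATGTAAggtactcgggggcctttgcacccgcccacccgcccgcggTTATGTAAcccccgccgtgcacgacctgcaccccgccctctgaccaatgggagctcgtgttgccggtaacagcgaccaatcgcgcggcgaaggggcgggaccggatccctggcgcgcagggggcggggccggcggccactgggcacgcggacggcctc
Nr1d1: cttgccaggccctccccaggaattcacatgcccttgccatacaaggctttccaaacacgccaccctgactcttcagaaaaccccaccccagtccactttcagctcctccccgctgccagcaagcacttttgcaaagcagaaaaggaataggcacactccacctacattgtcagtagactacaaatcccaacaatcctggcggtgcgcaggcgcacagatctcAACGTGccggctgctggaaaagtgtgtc
Of all 32851 promoter windows in the table, 7.15% held the E-box, 4.69% its variant, 0.938% the D-box, 2.61% TAGGTCA, 13.7% GGGTCA, 1.79% the whole cAMP element and 20.8% TGACG. Among the 13 windows of the members, 2 held the E-box, 3 the variant, 1 the D-box, 1 TAGGTCA (Arntl, 31 bases after its second start), 0 GGGTCA, 0 the whole cAMP element and 4 TGACG. The Dbp window held no match.

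Of the activators, Arntl was highest in suprachiasmatic-type nuclei, at 121.3 CPM from 21 UMIs in US- and 151.4 CPM from 116 UMIs in US+, against 49.6 and 52.9 CPM in other GABAergic nuclei. The ratio to other GABAergic nuclei was 2.44 (95% interval 1.51 to 3.75) in US- and 2.86 (2.35 to 3.45) in US+. Striatal-type nuclei followed at 66.2 and 55.8 CPM, and glutamatergic nuclei had 50.2 and 54.6 CPM. In US+ neighbours among the last 3 classes did not differ beyond counting error, and in US- glutamatergic and other GABAergic nuclei did not.

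Levels of Clock, the partner of Arntl, ran from 127.7 CPM in striatal-type to 173.3 CPM in suprachiasmatic-type nuclei of US-, and from 138.4 CPM to 189.3 CPM in the same classes of US+. The suprachiasmatic-type level was 1.27 times that of other GABAergic nuclei in US- (0.856 to 1.81) and 1.29 times in US+ (1.09 to 1.53).

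Nr1d1, the REV-ERB alpha gene, was low in 3 classes and higher in suprachiasmatic-type nuclei. It was at 4.17 and 3.28 CPM in striatal-type, 3.93 and 4.22 CPM in other GABAergic and 3.68 and 5.27 CPM in glutamatergic nuclei, and at 11.6 and 20.9 CPM in suprachiasmatic-type nuclei, US- first. The ratio of suprachiasmatic-type to other GABAergic nuclei was 2.94 (0.354 to 10.8) in US-, where it rests on 2 UMIs, and 4.95 (2.77 to 8.27) in US+, where it rests on 16. Those 16 UMIs lay in 12 of the 87 nuclei, with up to 4 in 1 nucleus. The minimum of 50 UMIs over both classes was met through other GABAergic nuclei, with 189 UMIs in US- and 176 in US+. Nr1d2, the relative of Nr1d1, showed no such order. It was at 98.2 (US-) and 49.6 (US+) CPM in suprachiasmatic-type nuclei against 66.4 and 64.0 CPM in other GABAergic nuclei.

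Past 1.5-fold in both libraries, the class contrast with other GABAergic nuclei thus took in 2 of 10 members for suprachiasmatic-type nuclei, Arntl and Nr1d1, both higher. Of all genes tested in that contrast 4.67% were higher and 11.4% lower in the same way. Suprachiasmatic-type nuclei of US+ alone also held more Per2, at 32.6 CPM, than other GABAergic nuclei, a ratio of 2.69 (1.72 to 4.01), and more Dbp, at 26.1 CPM, a ratio of 2.86 (1.73 to 4.48). In the 20 US- nuclei the same ratios were 1.48 (0.304 to 4.34) and 0.909 (0.110 to 3.30), on 3 and 2 UMIs. When every nucleus was thinned to 2000 UMIs, the Arntl ratio was 1.43 (0.295 to 4.22) on 3 UMIs in US- and 2.44 (1.55 to 3.68) on 24 UMIs in US+. Nr1d1 then had 0 UMIs in the US- nuclei and 3 in US+, so that no call could be made.

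Striatal-type nuclei had 0 of 10 members past 1.5-fold in both libraries, beside a background of 4.62% of genes higher and 16.2% lower than in other GABAergic nuclei. Their members lay on the high side in US-, with a median ratio of 1.33 against 0.867 over all genes tested. In US+ the medians were 1.17 and 0.798. Dbp was the member furthest up in US-, at 26.8 CPM against 12.7 CPM (2.11, 1.88 to 2.37), and Per1 in US+, at 40.0 CPM against 13.5 CPM (2.95, 2.56 to 3.41). Scaling by trimmed means (TMM) moved these ratios up by 1.13 and 1.20 times and put Per1 and Dbp past 1.5-fold in both libraries.

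Glutamatergic nuclei were nearest to other GABAergic ones. Of the 10 members 0 were past 1.5-fold in both libraries, beside 2.63% of genes higher and 2.45% lower, and the median ratio was 1.01 in US- and 0.947 in US+. Per1 had the widest gap, at 8.37 against 9.62 CPM in US- and 7.84 against 13.5 CPM in US+ (0.579, 0.445 to 0.744).

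**Figure D1:**
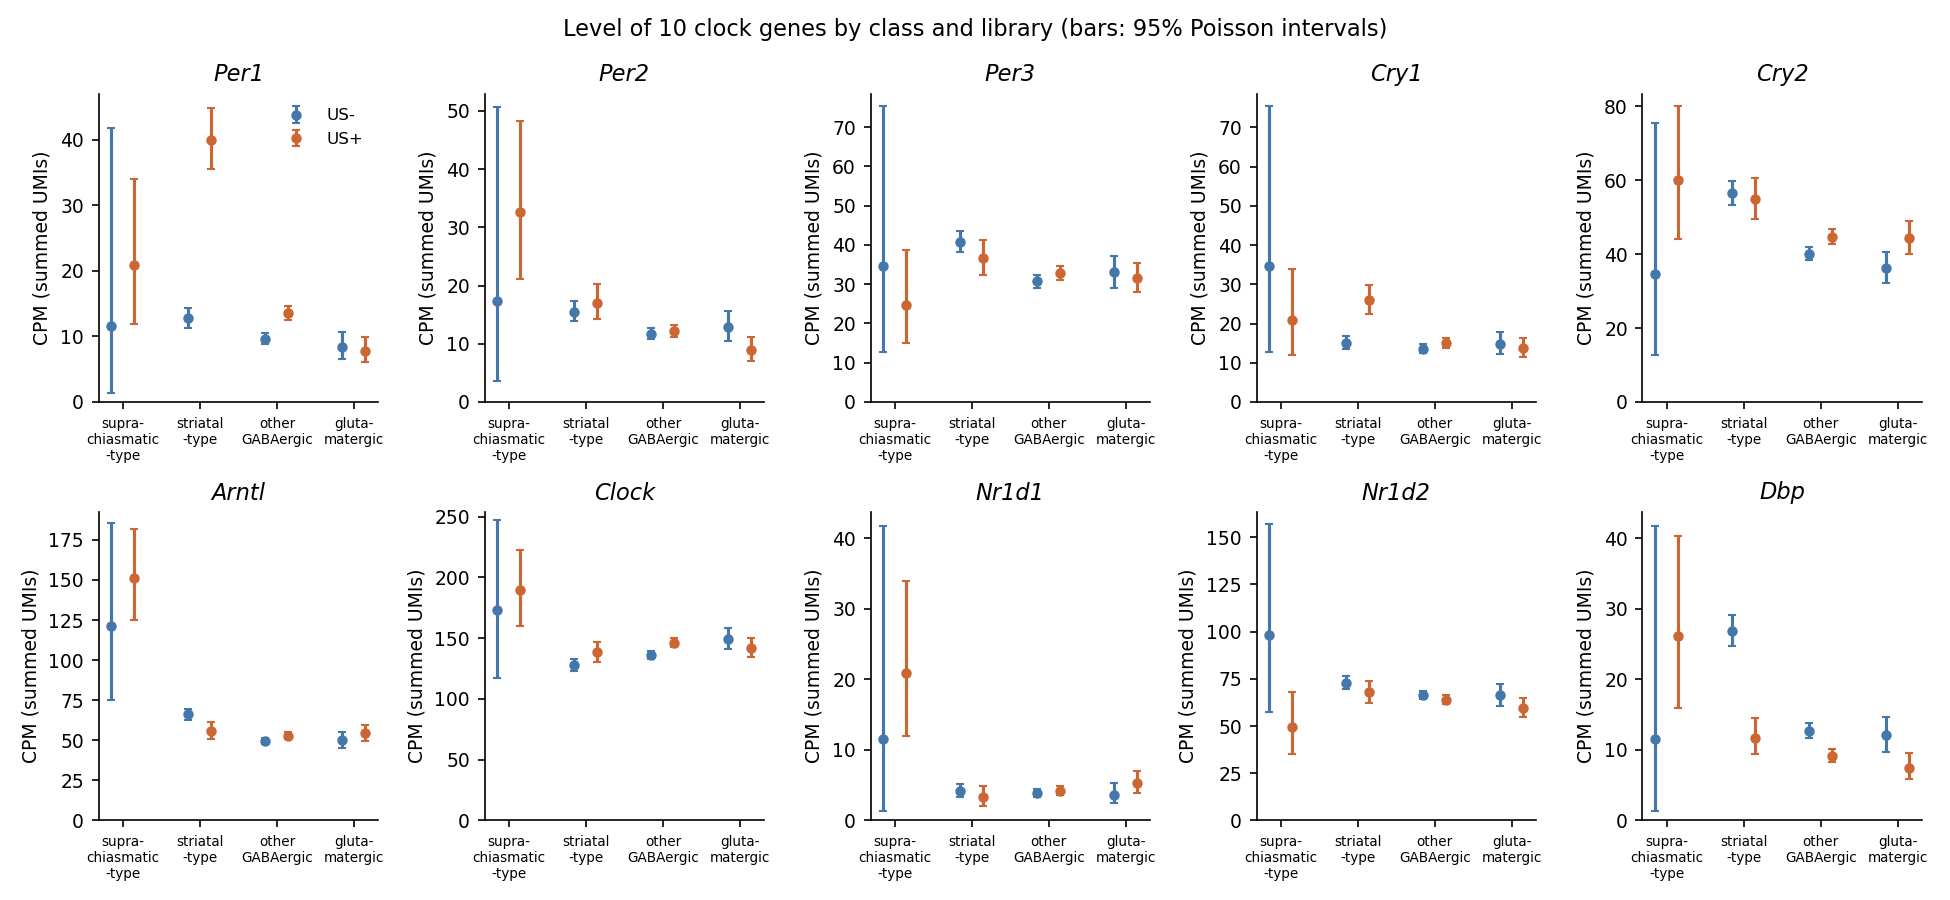
Level of each of the 10 clock genes in CPM of summed UMIs (vertical axis, from 0) in the 4 classes of nuclei (horizontal axis), with US- in blue, US+ in orange and 95% Poisson intervals as bars. Per1 in striatal-type nuclei stands at 12.8 (US-) and 40.0 (US+) CPM, Dbp there at 26.8 and 11.7 CPM, and Arntl is highest in suprachiasmatic-type nuclei of both libraries, whose US- bars are wide because they rest on 20 nuclei.

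Between US+ and US-, striatal-type nuclei held the most members past 1.5-fold among the 3 classes in which all 10 could be read. There the Period gene Per1 was higher in US+, the Cryptochrome gene Cry1 was higher, and the output gene Dbp was lower, while the activators and the REV-ERB genes stayed within 1.5-fold. Of the 10 members, 2 were at least 1.5-fold higher, beside 6.23% of all genes tested, and 1 was at least 1.5-fold lower, beside 9.03%. The median ratio over the 10 members was 0.951, next to 0.953 over all genes.

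Per1 was at 12.8 CPM in the 2017 striatal-type nuclei of US- (279 UMIs) and at 40.0 CPM in the 584 nuclei of US+ (293 UMIs), a ratio of 3.13 (2.64 to 3.70). At least 1 Per1 UMI was seen in 11.8% of these nuclei in US- and 34.8% in US+, and after thinning each nucleus to 2000 UMIs in 3.12% (2.41 to 3.98, exact binomial) and 6.68% (4.79 to 9.02). Median depths were 9211 and 10524 UMIs, and no class was known to lack Per1, so a background share from free RNA could not be given. On thinned counts the ratio of levels was 2.20 (1.46 to 3.28).

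The other Period genes did not follow Per1. Per2 was at 15.5 (US-) and 17.1 (US+) CPM, a ratio of 1.10 (0.887 to 1.35). Per3 was at 40.8 and 36.6 CPM, a ratio of 0.898 (0.780 to 1.03). The intervals of both lie below that of Per1, so the 3 Period genes differed unequally between these libraries.

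Of the Cryptochrome genes, which encode the repressors that pair with the Period proteins, Cry1 was at 15.0 (US-) and 25.9 (US+) CPM, a ratio of 1.73 (1.44 to 2.08). Cry2 was at 56.4 and 54.9 CPM, a ratio of 0.972 (0.867 to 1.09). On thinned counts Cry1 rested on 62 and 26 UMIs, and its ratio of 1.45 (0.879 to 2.32) was short of 1.5.

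Dbp was at 26.8 CPM from 585 UMIs in US- and 11.7 CPM from 86 UMIs in US+, a ratio of 0.438 (0.345 to 0.550). On thinned counts the ratio was 0.281 (0.131 to 0.534), from 123 and 10 UMIs. Per3, whose window above carries the D-box at 2 places, was within counting error of 1 in the same nuclei. A link between Dbp and the level of Per3 was not tested.

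The activators and REV-ERB genes of striatal-type nuclei lay close to 1. Arntl was at 66.2 and 55.8 CPM (0.843, 0.753 to 0.941), Clock at 128 and 138.4 CPM (1.08, 1.01 to 1.16), Nr1d1 at 4.17 and 3.28 CPM (0.785, 0.479 to 1.24) and Nr1d2 at 72.9 and 67.8 CPM (0.930, 0.839 to 1.03). Only the intervals of Arntl and Clock lie to one side of 1 here, and both differences are smaller than 1.5-fold. On thinned counts both intervals include 1, with Arntl at 1.02 (0.780 to 1.32) and Clock at 1.08 (0.900 to 1.29).

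Other measures of striatal-type nuclei were read beside these values, and not all of them differed between the libraries. The early response genes Fos, at 2.34 (US-) and 30.6 (US+) CPM (13.1, 9.61 to 18.1), Nr4a1, at 8.02 and 74.7 CPM, and Egr1, at 12.7 and 40.0 CPM, were higher in US+. Of genes that glucocorticoids induce, Fkbp5 was at 41.9 and 59.5 CPM (1.42, 1.26 to 1.59), Tsc22d3 at 2.43 and 3.00 CPM (1.24, 0.716 to 2.07) and Sgk1 at 193.6 and 99.8 CPM (0.515, 0.476 to 0.558). The summed level of the 10 striatal markers was 3943 CPM in US- and 3434 CPM in US+, that of 5 oligodendrocyte markers 42.1 and 77.9 CPM, of 5 astrocyte markers 9.12 and 14.3 CPM and of 5 microglia markers 106.8 and 113.3 CPM, none of these markers at 0. Their part in the result was not tested.

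In other GABAergic nuclei 0 of 10 members were past 1.5-fold, beside 5.09% of genes higher and 2.79% lower. Per1 was at 9.62 (US-) and 13.5 (US+) CPM, a ratio of 1.41 (1.24 to 1.60), and Dbp at 12.7 and 9.13 CPM, a ratio of 0.718 (0.630 to 0.817). These were the same directions as in striatal-type nuclei at smaller sizes. The other 8 members lay between a ratio of 0.964 for Nr1d2 and 1.11 for Cry2. This class still held Rarb at 227.7 and 108.7 CPM. In the 3303 US- and 3420 US+ nuclei of it without a Rarb UMI, Per1 was at 9.23 and 11.1 CPM (1.20, 1.02 to 1.42) and Dbp at 10.8 and 8.84 CPM (0.822, 0.695 to 0.971). With stricter class rules (at least 4 GABAergic UMIs) Per1 reached 1.60, and with at least 2 UMIs of Drd1 plus Drd2 required of striatal-type nuclei Per1 reached 1.54 and Dbp 0.639.

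In glutamatergic nuclei 0 members were past 1.5-fold higher, beside 3.22% of all genes, and 1 of 10 lower, beside 1.96%. That member was Dbp, at 12.1 (US-) and 7.51 (US+) CPM, a ratio of 0.623 (0.449 to 0.860). With at least 5000 UMIs per nucleus it was inside 1.5-fold, at -0.55 on the log2 scale, and with stricter class rules likewise, at a ratio of 0.791. Per1 was at 8.37 and 7.84 CPM, a ratio of 0.936 (0.659 to 1.33), whose interval lies below that of striatal-type nuclei and overlaps that of other GABAergic nuclei. Per2 was at 12.8 and 8.96 CPM, a ratio of 0.699 (0.515 to 0.947).

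In suprachiasmatic-type nuclei only 4 members had the 50 UMIs that a ratio was read from, and each US- level rested on 20 nuclei. Cry2 was at 34.7 CPM from 6 UMIs in US- and 60.0 CPM from 46 UMIs in US+, a ratio of 1.73 (0.738 to 4.97). Nr1d2 was at 98.2 CPM (17 UMIs) and 49.6 CPM (38 UMIs), a ratio of 0.505 (0.278 to 0.955). That is 1 of 4 higher, beside 12.8% of genes, and 1 of 4 lower, beside 10.5%. With at most 5000 genes per nucleus both stayed past 1.5-fold, Cry2 at 1.59 and Nr1d2 at -0.73 on the log2 scale, but fell short of 50 UMIs. On thinned counts, also short of 50 UMIs, Cry2 was at 2.99 and Nr1d2 on the other side of 1, at 1.15. Arntl, at 1.25 (0.780 to 2.09), and Clock, at 1.09 (0.733 to 1.68), did not differ beyond counting error, and Per1, Per2, Nr1d1 and Dbp had 2 or 3 UMIs each in US-. Nr1d2 was thus the single member whose interval lay to one side of 1 in this class.

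**Figure D2:**
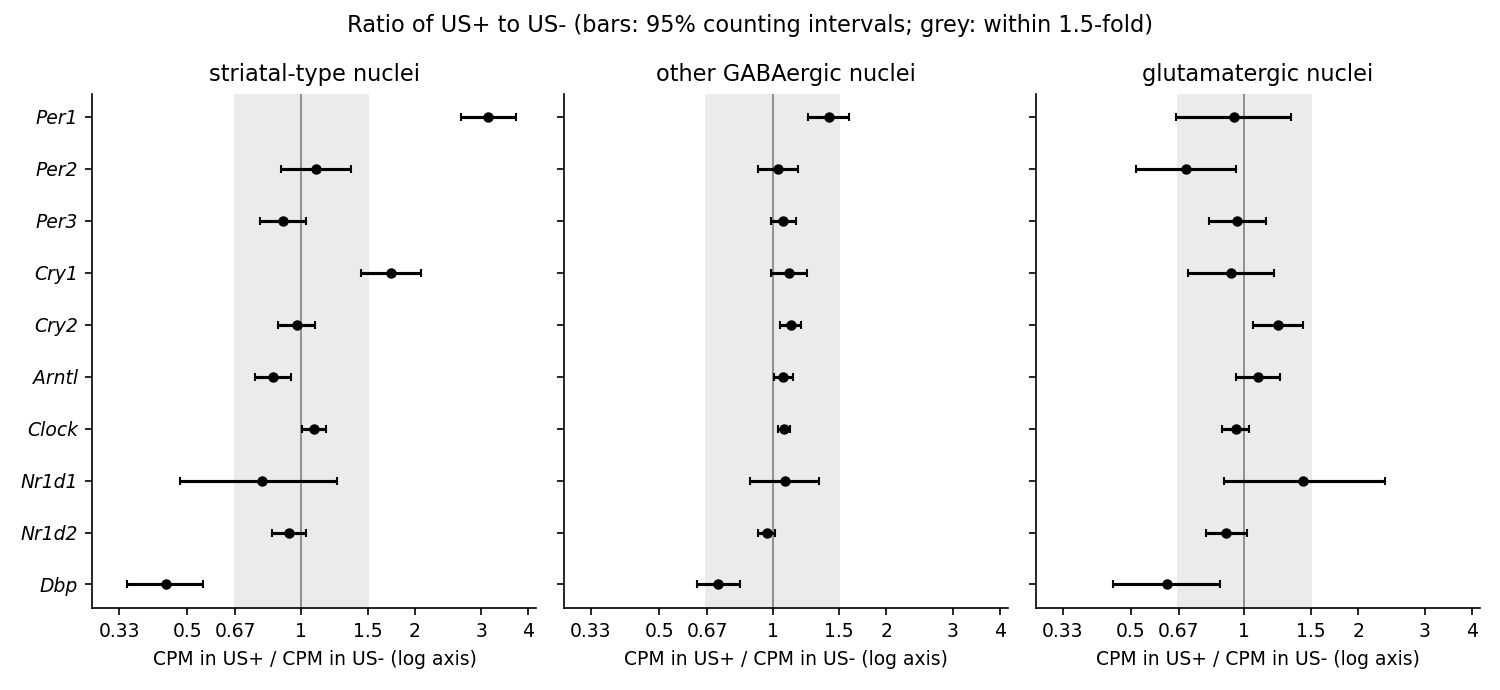
Ratio of the CPM in US+ to that in US- (horizontal log axis) for the 10 members in striatal-type, other GABAergic and glutamatergic nuclei, with 95% counting intervals as bars and the range within 1.5-fold in grey. In striatal-type nuclei Per1 (3.13) and Cry1 (1.73) lie to the right of the grey range and Dbp (0.438) to its left, and in glutamatergic nuclei Dbp (0.623) lies to the left.

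Nuclei were split further by marker genes into 11 groups beside the suprachiasmatic-type nuclei. The cholinergic group, with at least 2 UMIs of Chat plus Slc5a7, held 236 (US-) and 90 (US+) nuclei. It was drawn from nuclei outside the suprachiasmatic-type and striatal-type classes, unclassified ones included. The other groups are parts of the classes. The Per1 ratio was above 1 in 10 of the 11 groups, with its interval above 1 in 6, and in glutamatergic nuclei of neither the Sim1 nor the Tcf7l2 group it was level at 1.00 (0.639 to 1.57). The Dbp ratio was below 1 in 10 of the 11, with its interval below 1 in 5. Of the groups with at least 50 UMIs over both libraries, Per1 was past 1.5-fold higher in 5 of 7, Dbp past 1.5-fold lower in 4 of 7 and Cry1 past 1.5-fold higher in 3 of 9. Clock, Cry2, Per3, Arntl and Nr1d2 were past 1.5-fold in 0 of the 10 or 11 groups with enough UMIs, Per2 was lower in 1 of 7, and Nr1d1 was higher in 2 and lower in 1 of 6. The share of all genes past 1.5-fold was not taken within the groups, so these counts stand without a background. All 11 groups are parts of the same 2 libraries, so they do not read the difference between the libraries independently.

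Per1 was at 12.3 (US-) and 43.7 (US+) CPM in striatal-type nuclei with more Drd1 than Drd2, the dopamine receptor of the direct pathway (3.55, 2.83 to 4.45). With more Drd2 than Drd1, the receptor of the indirect pathway, it was at 13.3 and 35.9 CPM (2.71, 2.08 to 3.51). Both kinds of striatal-type nuclei thus held the difference, and their intervals overlap. Cry1 was at 15.6 and 29.2 CPM in the Drd1 group (1.87, 1.47 to 2.36) and at 14.0 and 22.0 CPM in the Drd2 group (1.57, 1.16 to 2.12), and Dbp at 26.2 and 11.8 CPM (0.449, 0.324 to 0.610) and at 27.3 and 11.6 CPM (0.427, 0.293 to 0.607). For Arntl the ratio in the Drd1 and Drd2 groups was 0.944 (0.814 to 1.09) and 0.724 (0.605 to 0.862).

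Among the other GABAergic nuclei, those with at least 2 UMIs of Foxp2, a transcription factor gene, had Per1 at 15.7 (US-) and 33.3 (US+) CPM (2.12, 1.70 to 2.65). Cry1 in them was at 15.4 and 23.3 CPM (1.51, 1.18 to 1.93) and Dbp at 21.2 and 11.2 CPM (0.527, 0.387 to 0.707). These nuclei held the 10 striatal markers at a summed 2169 and 1615 CPM and Rarb at 719.9 and 428.6 CPM, and the sum of 6 early genes was at 49.2 and 323.0 CPM. In nuclei with Esr1, the estrogen receptor gene, Per1 was at 5.28 and 8.93 CPM (1.69, 1.10 to 2.67), while Dbp, at 8.09 and 8.14 CPM, was level (1.01, 0.685 to 1.49). Nuclei with Lhx6 had Per1 at 7.27 and 11.3 CPM (1.55, 0.986 to 2.44), and those with Sim1, a gene of glutamatergic hypothalamic neurons, at 10.5 and 6.18 CPM (0.591, 0.284 to 1.26), the single group with a Per1 ratio below 1.

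**Figure D3:**
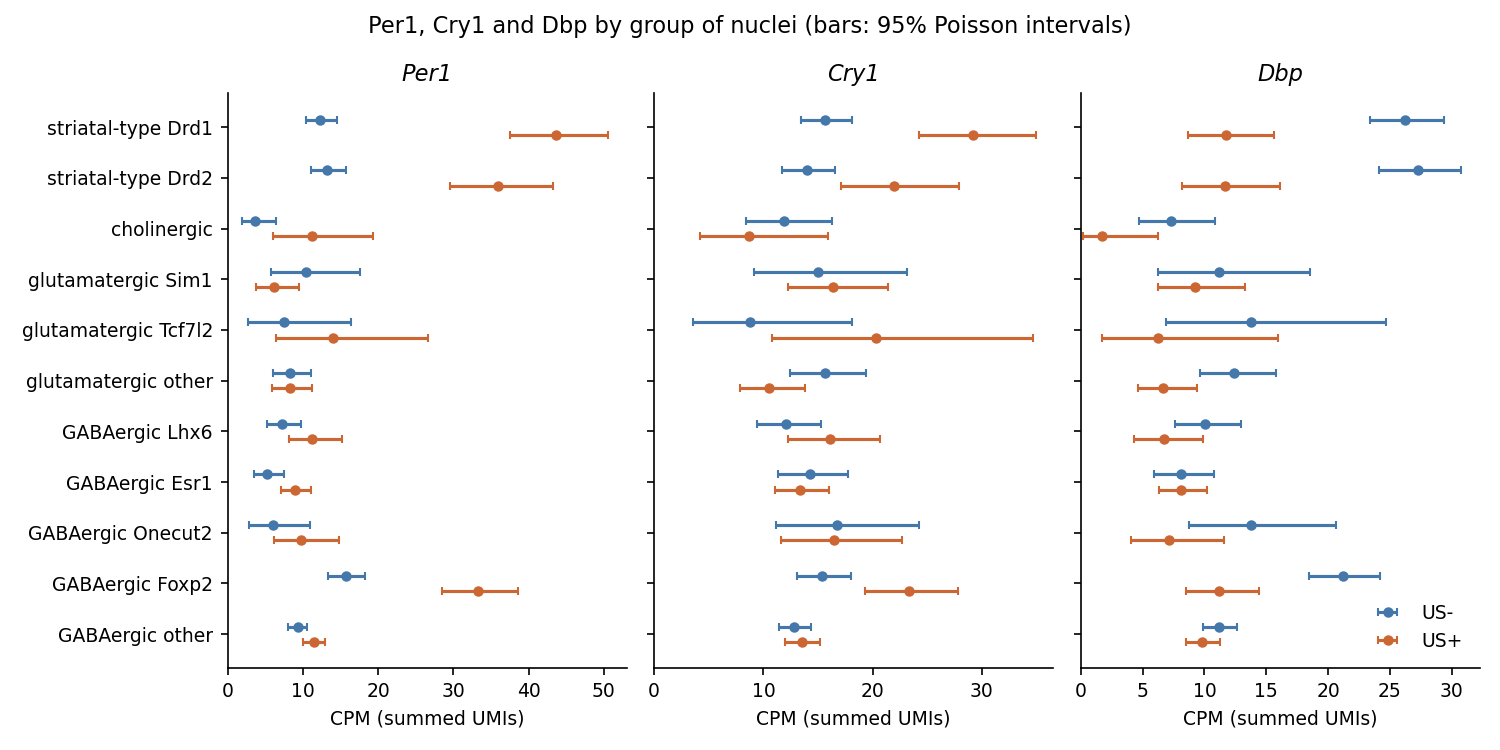
CPM of Per1, Cry1 and Dbp (horizontal axes, from 0) in 11 groups of nuclei (vertical axis), with US- in blue, US+ in orange and 95% Poisson intervals as bars. In the striatal-type Drd1, striatal-type Drd2 and GABAergic Foxp2 groups the bars of US+ and US- do not overlap for any of the 3 genes, Per1 and Cry1 being higher in US+ and Dbp lower, while the wide Cry1 gap in the glutamatergic Tcf7l2 group (8.78 and 20.3 CPM) rests on 7 and 13 UMIs.

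Nuclei with an early gene UMI were then set against the rest. Every nucleus was thinned to 2000 UMIs and counted as having one when Fos, Fosb, Egr1, Nr4a1, Arc or Junb, genes that neurons switch on within minutes of activation, was seen. Such nuclei made up 7.59% of striatal-type nuclei in US- and 43.7% in US+, 6.82% and 11.8% of other GABAergic nuclei and 5.01% and 6.26% of glutamatergic nuclei. The share thus differed most between the libraries in the class where Per1 did.

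Within other GABAergic nuclei of each library Per1 was higher in the nuclei with an early gene UMI. In other GABAergic nuclei of US+ its thinned level was 45.2 CPM with and 11.01 CPM without an early gene UMI, a ratio of 4.10 (2.83 to 5.88), and in US- 21.5 and 10.1 CPM, a ratio of 2.14 (1.15 to 3.70). In striatal-type nuclei of US+ it was 49.0 and 25.8 CPM, a ratio of 1.90 (0.985 to 3.74), and in US- 22.9 and 15.8 CPM, a ratio of 1.45 (0.557 to 3.17). Taken over all UMIs of the same nuclei, an alternative added after the data were seen, the 4 ratios in this order were 3.68, 2.18, 1.89 and 1.90. The striatal-type intervals were then 1.49 to 2.40 in US+ and 1.29 to 2.73 in US-, above 1, while on thinned counts both include 1. In glutamatergic nuclei of US+ the thinned Per1 ratio was 1.25 (0.0292 to 8.43), on 1 UMI in nuclei with an early gene UMI. In US- it was 3.45 (0.371 to 15.8), on 2 such UMIs. Over all UMIs the glutamatergic ratios were 3.51 (1.76 to 6.48) in US+ and 2.32 (0.895 to 5.09) in US-. In suprachiasmatic-type nuclei Per1 had 0 thinned UMIs in the 2 US- and 7 US+ nuclei with an early gene UMI. Per2, the other Period gene known to respond to signals, had ratios of 2.12 (1.35 to 3.23) in US+ and 1.89 (1.07 to 3.15) in US- other GABAergic nuclei on thinned counts. Over all UMIs these were 1.78 (1.40 to 2.24) and 1.35 (0.982 to 1.83), and both striatal-type intervals on thinned counts include 1 (0.896 to 8.38 in US+ and 0.755 to 3.89 in US-). The other GABAergic class mixes kinds of nuclei. Over all UMIs its Foxp2 nuclei held Per1 at 33.3 CPM and the 6 early genes at 323.0 CPM in US+. GABAergic nuclei outside the marker groups held 11.4 and 65.8 CPM there. In US- the values were 15.7 and 49.2 CPM against 9.29 and 37.1 CPM. How far this mixture gave the ratios in that class was not tested.

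The difference between the libraries in striatal-type nuclei was also present where no early gene was seen. In the 1864 US- and 329 US+ nuclei without an early gene UMI, Per1 was at 12.05 and 29.3 CPM over all UMIs (2.43, 1.94 to 3.02), Cry1 at 14.7 and 25.3 CPM (1.72, 1.37 to 2.15) and Dbp at 26.1 and 11.4 CPM (0.436, 0.319 to 0.585). In nuclei with an early gene UMI the Per1 ratio was 2.41 (1.66 to 3.60). In other GABAergic nuclei without one Per1 was at 8.95 and 10.5 CPM (1.17, 1.01 to 1.35). A nucleus without an early gene UMI at this depth may still express one, so these are nuclei with less early gene RNA, not with none.

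**Figure D4:**
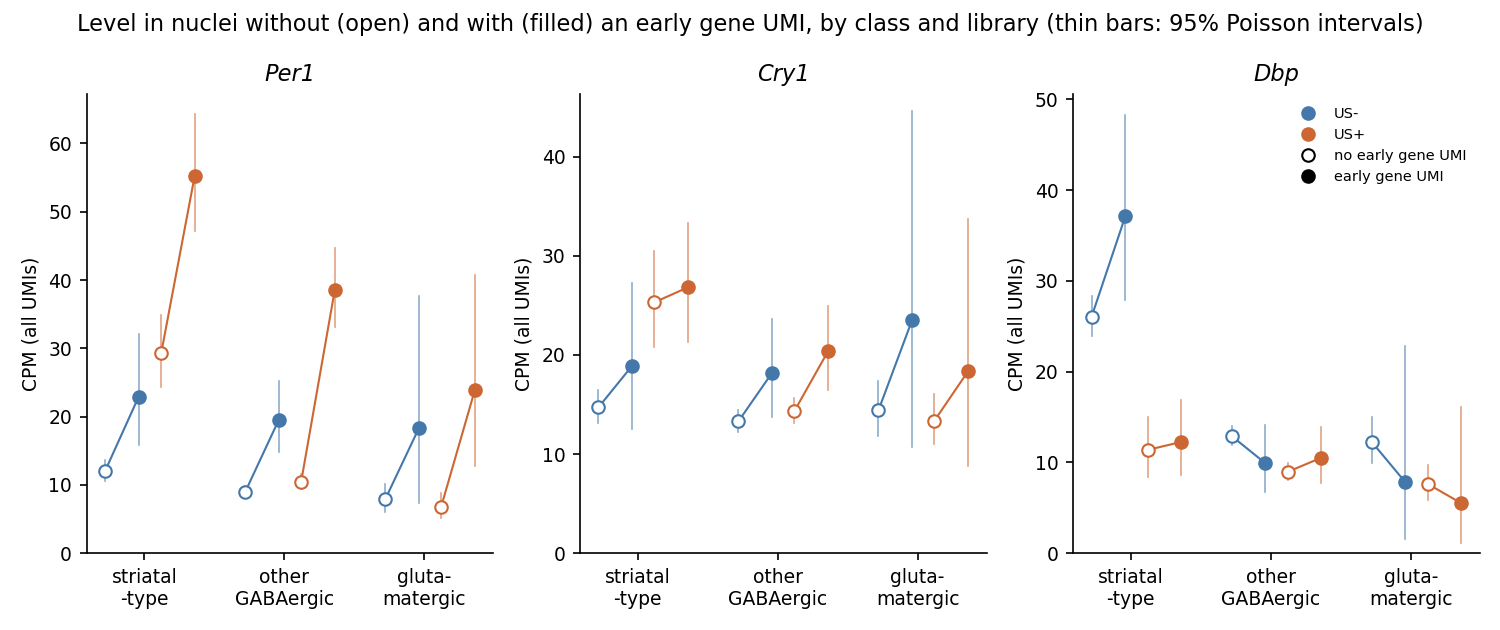
CPM over all UMIs of Per1, Cry1 and Dbp (vertical axes, from 0) in nuclei without (open) and with (filled) an early gene UMI, joined by a line within class and library, with 95% Poisson intervals as thin bars, US- in blue and US+ in orange. In the 3 classes plotted (striatal-type, other GABAergic and glutamatergic) Per1 is higher in the filled points, from 12.05 to 22.9 CPM in US- and from 29.3 to 55.3 CPM in US+ striatal-type nuclei, while Dbp in those US+ nuclei is 11.4 and 12.3 CPM.

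The wider clock was read in 27 other genes, among them the partners, kinases and ligases of the loop. In striatal-type nuclei 26 had 50 UMIs, of which 3 were past 1.5-fold higher and 2 lower in US+, beside the 6.23% and 9.03% of all genes. Rorb, whose product activates ROR elements, was at 35.9 and 84.3 CPM (2.35, 2.11 to 2.61), the kinase gene Sik3 at 296.8 and 614.6 CPM (2.07, 1.99 to 2.15) and Nfil3, whose product represses D-box genes, at 2.75 and 6.55 CPM (2.38, 1.59 to 3.54). Tef, at 99.7 and 66.1 CPM (0.663, 0.599 to 0.731), and Hlf, at 53.0 and 34.9 CPM (0.659, 0.573 to 0.755), were lower. Tef and Hlf are the closest relatives of Dbp and bind the same D-box. Both lie just past 1.5-fold, and Tef was called in 12 of 16 alternatives and Hlf in 11, neither of them under TMM scaling or on thinned counts. Nfil3 was called in 15 of the 16, the exception being thinned counts.

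In other GABAergic nuclei 1 of 27 was past 1.5-fold, beside 5.09% of all genes higher and 2.79% lower, namely Rorb at 142.5 and 220.5 CPM (1.55, 1.50 to 1.60), and in glutamatergic nuclei 1 of 25, beside 3.22% higher and 1.96% lower, namely Npas2, a relative of Clock, at 33.2 and 53.0 CPM (1.59, 1.37 to 1.86). Suprachiasmatic-type nuclei had Fbxw11, a gene of Period breakdown, at 127.1 and 80.9 CPM (0.637, 0.386 to 1.09), 1 of 12 beside 10.5% of all genes lower. Tef and Hlf in other GABAergic nuclei were at ratios of 0.907 (0.861 to 0.955) and 1.07 (0.986 to 1.16).

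Between classes, 3 of the 27 were past 1.5-fold higher in both libraries in suprachiasmatic-type than in other GABAergic nuclei, beside 4.67% of all genes, namely Rorb, which is also a marker of that nucleus, Hlf (2.45 and 2.22) and Fbxl21 (4.17 and 4.09), which acts on Cryptochrome breakdown. In striatal-type nuclei Npas2, a substitute for Clock in the forebrain, was at 256.7 and 237.7 CPM against 61.8 and 59.2 CPM in other GABAergic nuclei, ratios of 4.16 (3.97 to 4.35) and 4.02 (3.78 to 4.27), and Cipc, an inhibitor of Clock, was higher at 1.53 and 1.67. Rorb and Fbxl21 were lower there in both libraries. That is 2 of 27 higher, beside 4.62% of all genes, and 2 of 27 lower, beside 16.2%. In glutamatergic nuclei Rorb was lower at 0.624 and 0.487. Between US+ and US- in striatal-type nuclei Npas2 was at a ratio of 0.926 (0.877 to 0.977).

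The likeness of patterns was described over 23 points, each a group of at least 50 nuclei in a library, as Pearson's r of log2(CPM + 10) among 12252 genes. The points share the libraries and their depth, so no test was made. Egr1 (0.950) and P4ha1 (0.933) were most like Per1, Sik3 (0.823) and Mapk10 (0.802) most like Cry1, Bmi1 (0.883) and Hist1h2be (0.871) most like Dbp, and Syt10 (0.899) and Prex1 (0.879) most like Arntl. For Per2 they were Tarsl2 (0.854) and Tnik (0.841), for Per3 Gas7 (0.886) and Apobec4 (0.869), for Cry2 Gm14330 (0.880) and Son (0.821), for Clock Rftn1 (0.886) and Usp47 (0.885), for Nr1d1 Gm20658 (0.870) and Pros1 (0.848) and for Nr1d2 Atp6v0a2 (0.840) and Yju2 (0.800). Among the members the closest pairs were Per2 with Arntl (0.828) and Per1 with Cry1 (0.764), and Clock with Nr1d2 ran most nearly opposite (-0.539). Per2 and Arntl were both highest in the suprachiasmatic-type point of US+, at 32.6 and 151.4 CPM. Their next highest US+ points were at 18.9 and 60.8 CPM. The weight of that single point in their likeness was not tested.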

How the data were processed

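The authors made the 2 deposited tables of UMI counts per gene and nucleus from NeuN-sorted nuclei with Cell Ranger 6.1.1 and its mm10 reference at default parameters. Nuclei over 7500 genes were left out as likely doublets, and no doublet caller was run. UMIs were summed over the nuclei of a class and library, scaled to CPM and compared as ratios with exact conditional 95% intervals, which cover counting error only. A gene was read at 50 UMIs or more over both groups, and called at 1.5-fold. A class contrast had to pass this in both libraries in 1 direction. Each group is 1 library, so there is no test. Of nuclei outside the first 2 classes, glutamatergic ones had at least 1 UMI of Slc17a6, Slc17a7 and Slc17a8 together and more of these than of Gad1, Gad2 and Slc32a1, and other GABAergic ones had at least 2 UMIs of the latter and 0 of the former. The 10 members, their order of description and the 27 other clock genes were chosen with earlier results of these data known. Named genes were all members, other clock genes past 1.5-fold in a class (at most 4 per direction) and, for each member, the 2 genes of most like pattern. Python 3.11.15, scipy 1.17.1, R 4.3.3 and edgeR 4.0.16 (TMM factors only) were used, and the steps were tested on simulated data. The alternatives tried were 12 planned and 4 added after seeing the data.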

Additional observations from a re-analysis of the deposited data

Results flagged for a closer look

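In nuclei that met no class rule, which the comparisons do not use, Per1 was at 8.52 (US-) and 12.8 (US+) CPM, a ratio of 1.50 (1.24 to 1.81). Clock in the same nuclei was at 142 and 150.2 CPM, a ratio of 1.06. Arntl was drawn out because its ratio was 1.07 in other GABAergic nuclei and 0.843 in striatal-type nuclei, on opposite sides of 1. On thinned counts the striatal-type ratio was 1.02 (0.780 to 1.32), no longer below 1. The difference between the classes was not tested.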

How the results depend on the processing

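In striatal-type nuclei Per1 kept a ratio of 2.20 to 3.58 and Dbp one of 0.281 to 0.461 over the 16 alternatives, and Cry1 was past 1.5-fold in all of them except on thinned counts (1.45). Of 192 values compared with those reported, most of them counts of genes, 167 stayed the same. A count was taken as the same within 1.5 times the reported count, whichever genes made it up. The remaining values were Per1 ratios of nuclei with to those without an early gene UMI. Such a ratio was taken as the same when it lay inside the interval of the reported ratio. The members past 1.5-fold between US+ and US- in suprachiasmatic-type nuclei, 2 as reported, were 0 with at most 5000 genes, on thinned counts and with Vip and Vipr2 both seen, 7 with no minimum of 50 UMIs and 1 without an early gene UMI. Of these 2, Cry2 was still at 1.59 with at most 5000 genes, 2.99 on thinned counts and 1.89 without an early gene UMI, and fell short of 50 UMIs in each. The other clock genes there, 1 as reported, were 0 at 5000 UMIs and thinned, 2 under equal weight per nucleus and TMM, 4 with Vip and Vipr2 both seen, 5 with no minimum and 3 without an early gene UMI. Nr1d2 there turned from -0.98 to 0.20 on the log2 scale when thinned. In striatal-type nuclei TMM left 3 of 5 other clock genes. In other GABAergic nuclei the members went from 0 to 1 under equal weight, 2 with at least 2 UMIs of Drd1 plus Drd2 and 1 under stricter rules, and the other clock genes from 1 to 2 at 5000 UMIs and thinned. In glutamatergic nuclei the members went from 1 to 0 at 5000 UMIs and 2 under equal weight, and the other clock genes from 1 to 2 thinned. Members past 1.5-fold between suprachiasmatic-type and other GABAergic nuclei went from 2 to 4 at 5000 UMIs and with at most 5000 genes, and those between striatal-type and other GABAergic nuclei from 0 to 2 under TMM and thinned. Some counts stayed the same while their genes changed. For suprachiasmatic-type against other GABAergic nuclei, the 2 members on thinned counts were Per1, lower, and Dbp, higher. With Vip and Vipr2 both seen they were Arntl, higher, and Nr1d2, lower. Between US+ and US- in glutamatergic nuclei, the 1 member called on thinned counts was Cry2, at 1.66. Dbp, at 0.443, fell short of 50 UMIs there. The share of all genes past 1.5-fold was not taken under the alternatives, so these counts stand without a background. The cause of the shifts was not tested. No paired analysis was possible because each group is 1 library. Suprachiasmatic-type values are limited by the 20 US- nuclei.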

Other observations

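The nuclei under 2000 UMIs, 623 in US- and 1987 in US+, were left out of the comparisons. In them Dbp was at 39.5 CPM from 25 UMIs in US- and 20.2 CPM from 38 UMIs in US+, a ratio of 0.511 (0.301 to 0.884). Per3 was at 50.5 and 31.3 CPM, a ratio of 0.620 (0.397 to 0.986), and Per1 at 22.1 and 26.5 CPM, a ratio of 1.20 (0.654 to 2.35). These nuclei held 5 astrocyte markers at a summed 181.5 and 166.7 CPM and 5 oligodendrocyte markers at 342.4 and 396.0 CPM, above every class of kept nuclei.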
